A study of Mus musculus with 5 samples.

Results

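Transforming growth factor beta (TGF-beta) signalling was followed through 10 genes in diabetic and normal mouse hearts: the ligands Tgfb1, Tgfb2 and Tgfb3, the receptors Tgfbr1, Tgfbr2 and Tgfbr3, and the signal carriers Smad2, Smad3, Smad4 and Smad7. The genes were chosen by name as the core of the pathway, out of 22180 genes with a probe set of their own on the array, and all 10 have a single probe set, so no choice among probe sets was needed. Where a gene of the wider pathway has several, the brightest on average is used. Whole-transcript arrays had been hybridised with total RNA of fresh heart tissue from male mice aged 12 weeks. The Akita group, 2 arrays (replicates 1 and 3), carries a mutation in Insulin 2 (Ins2+/-) and serves as a model of type 1 diabetes, and the wild type (WT) group, 3 arrays (replicates 3, 4 and 5), has the unmutated gene. Both groups are on the C57BL/6 background, and the labels name no treatment. The heart was taken as bulk tissue, so fewer cells of a type and less RNA per cell cannot be told apart, and the labels do not say which chambers were included. Nothing in them ties each array to a separate animal either, and the p-values therefore rest on a sample spread that may be technical in part.

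TGF-beta is secreted in a latent form that is held in the matrix, and once freed it binds the type II receptor encoded by Tgfbr2, which phosphorylates the type I receptor encoded by Tgfbr1. The activated receptor phosphorylates SMAD2 and SMAD3, which enter the nucleus with the shared partner SMAD4 and change transcription, among other genes of matrix components and of SMAD7, an inhibitor that closes the loop. In the heart the pathway is known for turning fibroblasts into matrix-producing myofibroblasts, and TGF-beta2 and its co-receptor, betaglycan (Tgfbr3), for their part in forming the cardiac valves and the epicardium.

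The stretches of 250 bases before the annotated start of Tgfb1, Smad3 and Tgfb2 are shown because Tgfb1 and Smad3 had 2 of the 3 widest group differences among the 10 genes and Tgfb2 the widest gap between both Akita arrays. They were taken from RefSeq (GRCm38.p6), where 5 of the 10 genes have an entry, and are written 5′ to 3′ along the gene's own strand. Capitals mark motif matches on either strand, and no matches overlap. The GC box, bound by SP1-type factors, was searched as GGGCGG. The SMAD element, a core sequence that SMAD3 and SMAD4 can bind, was searched as CAGAC. The E-box, a site of basic helix-loop-helix factors, was searched as CACGTG. The TATA box, which positions the start of transcription, was searched as TATAAA. The CCAAT box, bound by the factor NF-Y, was searched by the letters of its name.
Tgfb1, chr7:25686752-25687001, plus strand: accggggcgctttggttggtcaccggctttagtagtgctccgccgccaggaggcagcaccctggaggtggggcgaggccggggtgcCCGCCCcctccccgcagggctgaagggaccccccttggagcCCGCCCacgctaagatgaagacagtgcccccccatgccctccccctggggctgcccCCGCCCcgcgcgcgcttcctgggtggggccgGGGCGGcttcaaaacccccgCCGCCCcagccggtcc
Smad3, chr9:63757995-63758244, minus strand: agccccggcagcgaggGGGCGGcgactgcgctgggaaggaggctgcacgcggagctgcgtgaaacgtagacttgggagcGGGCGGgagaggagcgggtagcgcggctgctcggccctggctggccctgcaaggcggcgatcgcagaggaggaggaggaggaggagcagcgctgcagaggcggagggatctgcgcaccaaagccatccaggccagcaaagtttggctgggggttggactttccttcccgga
Tgfb2, chr1:186705990-186706239, minus strand: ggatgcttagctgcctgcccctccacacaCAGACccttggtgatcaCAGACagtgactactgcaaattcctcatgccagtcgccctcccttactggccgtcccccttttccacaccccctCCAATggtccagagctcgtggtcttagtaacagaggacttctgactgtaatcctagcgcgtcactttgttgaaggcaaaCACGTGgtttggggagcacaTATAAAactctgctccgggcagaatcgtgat
The Tgfb1 window holds 5 GC boxes and the Smad3 window 2, with no match to the other letters, and their base composition is 75.2% and 69.2% G and C. Tgfb2 is built differently, with 53.6% G and C, 2 SMAD elements, 1 CCAAT box, 1 E-box and a TATA box whose first base lies 31 bases before the start. Of 32851 such windows in the table, 32.7% hold a GC box, 42.2% the SMAD element, 6.0% the E-box, 12.4% the TATA box and 33.8% the CCAAT box. These matches describe the letters and say nothing of binding.

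Expression is given as log2 signal, where 1 unit is a 2-fold change, and levels are compared between arrays within a gene and never between genes. The median over all probe sets was 4.71 and 4.60 in Akita replicates 1 and 3 and 4.53 to 4.62 in the WT arrays. Differences between groups were tested with limma over the 15528 genes whose mean signal was at least 4.06, the 30th percentile, with Benjamini-Hochberg adjustment and a threshold of 0.05; all 10 genes passed this filter, which uses the mean over both groups. By this test 0.213% of genes rose in Akita and 0.116% fell. Markers in the ventricular myocyte list check only that the tissue is heart, and not which chambers it holds. They lay far above the filter in all arrays, with Myh6 at 12.90 and 12.92 in Akita and 12.83 to 12.95 in WT. Myh6 did not differ on average, but 8 of the 9 markers had a log2 difference below 0 (list median -0.07). In 5 of the 9 both Akita arrays lay under all WT arrays, where 19.9% of all genes did. Myl2 was one of these, at 8.43 and 8.32 in Akita, against 8.55 to 8.66 in WT. At an unadjusted limma p under 0.05, 0 of the 9 were lower. Akita replicate 3 lay above every WT array in 7 of 8 atrial myocyte markers, where 25.2% of all genes did. The median of the 8 lay 1.94 above the WT mean in that array and at -0.17 in Akita replicate 1.

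Among the ligands, Tgfb1, the isoform best known from cardiac fibrosis, was lower on average in Akita, but its groups overlapped. Its log2 signal was 7.64 and 8.04 in Akita replicates 1 and 3, against 8.08, 8.34 and 8.02 in WT replicates 3, 4 and 5. Akita replicate 1 lay under every WT array, and Akita replicate 3 lay just above the lowest of them. The means were 7.84 ± 0.28 (SD, n = 2) in Akita and 8.15 ± 0.17 (SD, n = 3) in WT, a log2 difference of -0.31 (SE 0.16, 95% interval -0.68 to 0.07, limma adjusted p = 0.460).

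Tgfb2, the isoform of valve and epicardial development, had nearly equal group means that hid the widest spread of the 10 genes within Akita. The values were 5.58 and 6.30 in Akita replicates 1 and 3, against 5.97, 6.01 and 5.90 in WT. One Akita array thus lay under all WT arrays and the other above them, 0.72 apart, while the WT arrays covered 0.11. The group difference was -0.02 (SE 0.20, 95% interval -0.49 to 0.45, limma adjusted p = 0.977). Tgfb3, which is expressed in mesenchymal tissues and is required for palate closure, showed the same arrangement at 7.0 and 7.56 in Akita, against 7.33, 7.40 and 7.09 in WT. Its group difference was 0.01 (SE 0.18, 95% interval -0.43 to 0.44, limma adjusted p = 0.991).

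Of the receptors, Tgfbr1 and Tgfbr3 differed little between both Akita arrays, by 0.06 each. Tgfbr2 differed by 0.24, where the median absolute gap over all genes tested was 0.19. Tgfbr1, the type I receptor kinase, lay at 6.48 and 6.54 in Akita and at 6.54, 6.51 and 6.47 in WT, so that the arrays of both groups fell within 0.07 of each other. Its log2 difference was 0.00 (95% interval -0.24 to 0.25, limma adjusted p = 0.992), which leaves room for a fold between 0.846 and 1.19. For Tgfbr2, the ligand-binding type II receptor, the signal was 7.47 and 7.71 in Akita and 7.61, 7.46 and 7.55 in WT (log2 difference 0.05, 95% interval -0.24 to 0.34, limma adjusted p = 0.897). Akita replicate 3 was the highest of the 5 arrays here, and Akita replicate 1 lay within the WT range. Tgfbr3 encodes betaglycan, which presents ligand, TGF-beta2 above all, to the signalling receptors. It stood at 8.25 and 8.31 in Akita and at 8.33, 8.31 and 8.16 in WT, with both Akita arrays inside the WT range (log2 difference 0.01, 95% interval -0.25 to 0.28, limma adjusted p = 0.973).

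**Figure D1:**
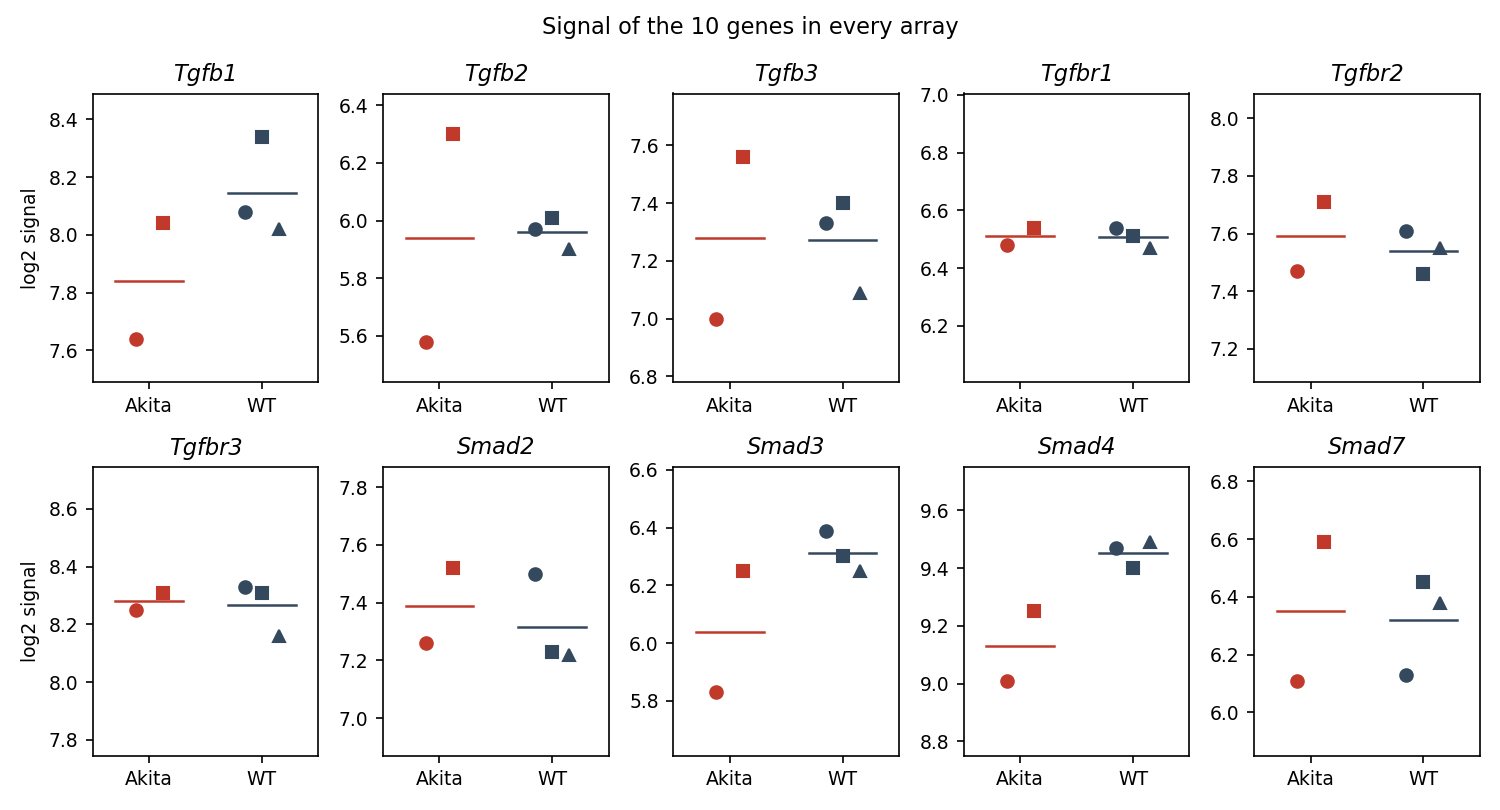
Log2 signal (y axis, each panel spanning 1 unit) of the 10 genes in the Akita arrays (red, circle replicate 1, square replicate 3) and the WT arrays (blue, circle replicate 3, square replicate 4, triangle replicate 5), with lines at the group means. Both Akita arrays lie under all WT arrays for Smad4, at 9.01 and 9.25 against 9.40 to 9.49, while for Tgfb2 they lie on either side of the WT arrays, at 5.58 and 6.30.

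Of the SMAD genes, Smad4 and Smad3 averaged lower in Akita, and Smad2 and Smad7 did not. Smad4, the partner shared by the TGF-beta and BMP branches, had the widest group difference of the 10 genes. It lay at 9.01 and 9.25 in Akita, against 9.47, 9.40 and 9.49 in WT. Both Akita arrays were under every WT array, the single case without overlap among the 10 genes, where 29.7% of all genes tested showed no overlap, 9.89% with Akita higher and 19.9% with Akita lower. The means were 9.13 ± 0.17 (SD, n = 2) in Akita and 9.45 ± 0.05 (SD, n = 3) in WT. The log2 difference was -0.32 (SE 0.12, 95% interval -0.60 to -0.04), with an unadjusted p of 0.0289 and a limma adjusted p = 0.313, so Smad4 did not pass.

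Smad3, a receptor-activated SMAD that binds DNA directly and carries much of the fibrotic response, had values of 5.83 and 6.25 in Akita, against 6.39, 6.30 and 6.25 in WT. Akita replicate 1 was low, and Akita replicate 3 equalled the lowest WT array to the 2 decimals deposited. The difference was -0.27 (SE 0.15, 95% interval -0.62 to 0.07, limma adjusted p = 0.467). Smad2, the other receptor-activated member, lay at 7.26 and 7.52 in Akita and at 7.50, 7.23 and 7.22 in WT, where Akita replicate 3 lay just above the highest WT array and Akita replicate 1 lay within the WT range (log2 difference 0.07, 95% interval -0.26 to 0.40, limma adjusted p = 0.866). Smad7, the inhibitory SMAD that is itself induced by TGF-beta, lay at 6.11 and 6.59 in Akita and at 6.13, 6.45 and 6.38 in WT. The Akita arrays again stood outside the WT range on either side, replicate 1 only just (log2 difference 0.03, 95% interval -0.37 to 0.43, limma adjusted p = 0.957).

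By limma, 0 of the 10 genes passed the adjusted threshold, where 0.328% of all genes did, and 1, Smad4, had an unadjusted p under 0.05, where 13.6% of all genes did. That count became 0 without any one WT array, and 0 with the arrays centred on the median of the genes tested. It stayed at 1 under the other alternatives that kept all 5 arrays. Leaving out an Akita array leaves 1 array in that group, so the count is not given there, only differences. Without Akita replicate 1 the log2 difference was -0.20 for Smad4 and 0.34 for Tgfb2. Without Akita replicate 3 it was -0.44 for Smad4 and -0.38 for Tgfb2. An unmoderated linear model called 0 of the 10 genes, but also 0 of all genes tested. The median log2 difference was 0.01 over the 10 genes and -0.03 over all genes tested, with 6 genes above 0, as were 43.3% of all genes, and 4 below, as were 56.4%. Across the 10 genes the 95% intervals reached from a fold of 0.622 (Tgfb1) to a fold of 1.37 (Tgfb2), each the bound of a single gene and no limit of detection for the others. An exact permutation test of a single gene cannot go below p = 0.1, one-sided, in this design. Of the 10 genes, Tgfb1, Smad3 and Smad4 kept a value under 0 under all 14 alternatives tried, whereas the sign of the other 7 turned with the scaling or with 1 array.

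**Figure D2:**
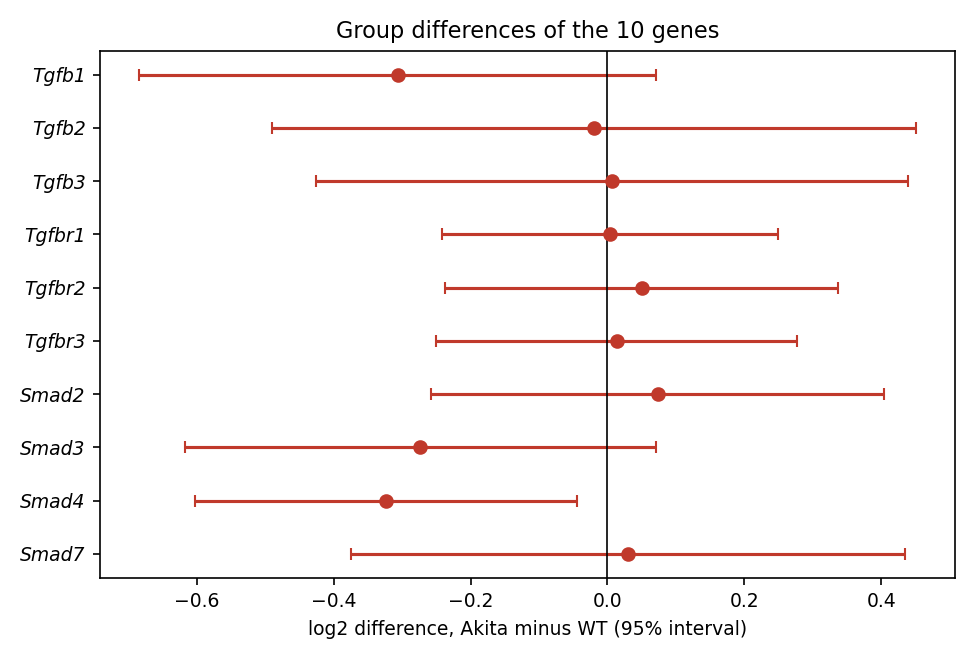
Log2 difference, Akita minus WT (x axis), of the 10 genes with 95% intervals from the limma fit on 2 Akita and 3 WT arrays. The intervals of 9 genes span 0, and that of Smad4, -0.60 to -0.04 before any adjustment over genes, does not.

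The pathway genes differed between both Akita arrays, and whether these are 2 animals is not stated. All 10 genes were higher in Akita replicate 3 than in Akita replicate 1, as were 58.5% of all genes tested, with a median signed gap of 0.33 over the 10 genes and 0.06 over all genes. The median absolute gap between both Akita arrays was 0.33 over the 10 genes and 0.19 over all genes. Within WT, the median absolute gap of the 10 genes between arrays was 0.08 to 0.105, where it was 0.12 to 0.15 over all genes. Akita replicate 1 lay under every WT array in 6 of the 10 genes (Tgfb1, Tgfb2, Tgfb3, Smad3, Smad4 and Smad7), where 43.4% of all genes did. Akita replicate 3 lay above every WT array in 5 (Tgfb2, Tgfb3, Tgfbr2, Smad2 and Smad7), where 25.2% did, and under every WT array in 1 (Smad4), where 29.5% did. The first 2 held together for Tgfb2, Tgfb3 and Smad7, and for 7.19% of all genes. Some margins were narrow, as for Smad7 in replicate 1 (6.11 against 6.13) and Smad2 in replicate 3 (7.52 against 7.50). The median of the 10 genes, as log2 signal minus the WT mean, was -0.24 in Akita replicate 1 and 0.11 in Akita replicate 3.

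Several marker lists of other cell types also differed between both Akita arrays. Cardiac fibroblast markers were higher in Akita replicate 3 than in replicate 1 in 10 of 10 genes, with medians of 0.04 in replicate 1 and 0.51 in replicate 3 above the WT mean, and 2 of the 10, Tcf21 and Ddr2, lay under all WT arrays in replicate 1. Pericyte and smooth muscle markers had medians of -0.23 and 0.11, and macrophage markers -0.37 and -0.03, in Akita replicates 1 and 3. Epicardial and mesothelial markers had medians of 0.01 in Akita replicate 1 and 0.27 in Akita replicate 3. Atrial markers were higher in replicate 3 than in replicate 1 in 8 of 8 genes. Their summed linear signal was 5525 and 17065 in Akita replicates 1 and 3, against 4719 to 5075 in WT. The brightest, Nppa, weighs most in that sum, at 12.21 and 13.39 in Akita, against 11.79 to 11.98 in WT. In replicate 1, 4 of the 8 lay under every WT array, where 43.4% of all genes did. Among them were Myl7 and Sln, at -1.45 and -1.23 from the WT mean. Nppa and Bmp10 lay above all WT arrays in both Akita arrays. White adipocyte markers, of which 4 of 8 were tested, had medians of 0.37 and 0.87 in Akita replicates 1 and 3. All 4 lay higher in Akita at an unadjusted p under 0.05, where 4.13% of all genes did. Adipoq, Lep and Adig fell under the filter on dim genes, and their groups overlapped. At the same p, 2 of 10 fibroblast, 3 of 10 epicardial and 2 of 8 atrial markers lay higher. Lower were 4 of 10 macrophage and 1 of 10 endothelial markers, where 9.49% of all genes were. Endothelial, ventricular myocyte, platelet and T cell lists had medians that were not higher in Akita replicate 3. In replicates 1 and 3 they were -0.02 and -0.09, -0.06 and -0.10, 0.17 and 0.04, and 0.16 and -0.09, in that order. The median gap within a gene, replicate 3 minus replicate 1, was 0.025, -0.03, 0.015 and 0.05 for these lists. The summed signal of fibroblast markers was 8468 and 10388 in Akita, against 7816 to 8431 in WT, and that of macrophage markers 1587 and 2063, against 1953 to 2280. None of the fibroblast, macrophage and atrial markers fell under the filter on dim genes. The part of these cell types in the gaps between the Akita arrays was not tested.

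**Figure D3:**
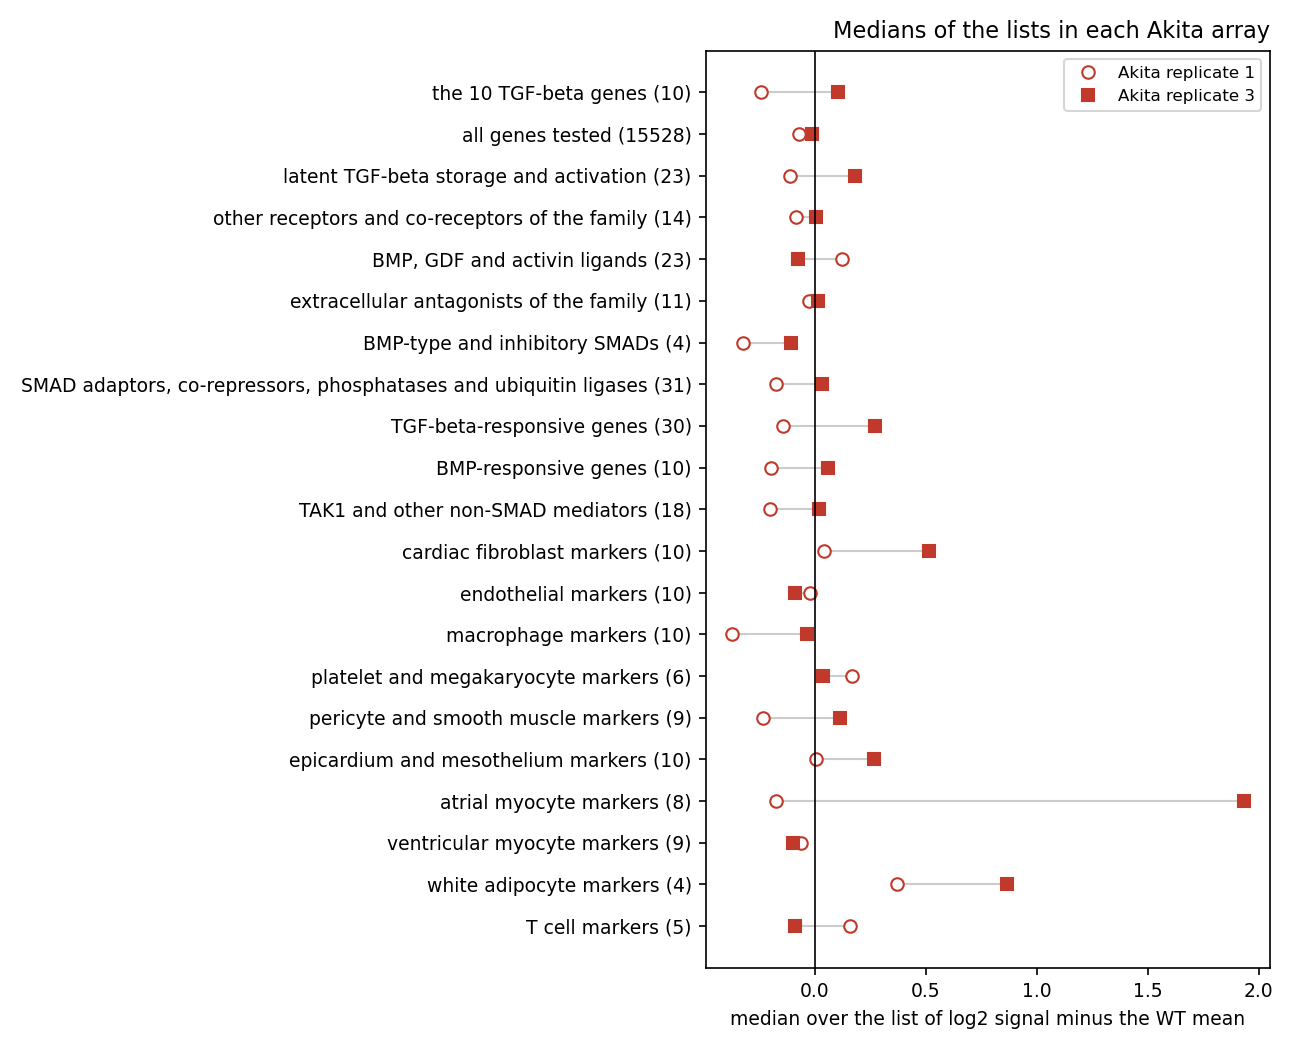
Median over each list (number of genes tested in brackets) of log2 signal minus the WT mean (x axis), in Akita replicate 1 (open circles) and Akita replicate 3 (filled squares). The 10 TGF-beta genes stand at -0.24 and 0.11, and the atrial myocyte markers at -0.17 and 1.94.

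Around the 10 genes, 177 further genes of the pathway were set out in 9 lists, with 166 on the array and 158 tested. Of these 1 rose, Ccn2, and 0 fell by limma, while 4 lay higher and 10 lower at an unadjusted p under 0.05, where 4.13% and 9.49% of all genes did so. The median log2 difference over the 158 genes was 0.00. Of these genes, Ltbp2, Bambi, Smad6, Skil, Smad9 and Pmepa1 sit in more than 1 of the 9 lists. Of the 177 genes, 171 are in no marker list, and the rest also serve as cell type markers.

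Upstream of the receptors, genes that store or free latent TGF-beta lay higher in 16 of 23 cases, with a median of 0.07 and 0 calls (0 higher and 1 lower at an unadjusted p under 0.05). The gene of smallest p was Itgb6, a subunit of an integrin that activates latent TGF-beta on epithelia, at 6.22 and 6.44 in Akita, against 6.66 to 6.87 in WT (log2 difference -0.42, limma adjusted p = 0.242). Both Akita arrays were under the WT arrays. Mmp2, a matrix protease that can free the ligand, lay at 8.61 and 9.20 in Akita, against 8.40 to 8.66 in WT (0.39, limma adjusted p = 0.414; 0.09 without Akita replicate 3). Bmp1, a protease that cleaves latent TGF-beta-binding protein, differed by -0.29 (limma adjusted p = 0.439), and by -0.12 without Akita replicate 1. Ltbp2, a binding protein of the microfibrils, differed by 0.23 (limma adjusted p = 0.487). Thbs1, thrombospondin, which activates the latent complex, was the gene of this list with the widest gap within Akita, at 5.84 and 7.19, against 6.31 to 6.54 in WT (0.13, or -0.55 without Akita replicate 3).

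The other receptors and co-receptors of the family had 5 of 14 genes above 0, a median of -0.05 and 0 calls, with 0 at an unadjusted p under 0.05. Acvrl1, the endothelial type I receptor ALK1, lay at 6.46 and 6.47 in Akita, against 6.57 to 6.77 in WT (log2 difference -0.23, limma adjusted p = 0.438), without overlap. Eng, endoglin, the endothelial co-receptor, spread from 10.10 to 10.70 within Akita, around WT values of 10.45 to 10.51 (-0.09, limma adjusted p = 0.873; 0.21 without Akita replicate 1). The BMP co-receptor genes Rgmb and Hjv differed by -0.23 and -0.18 (limma adjusted p = 0.520 and 0.594). Without Akita replicate 1 they differed by -0.0433 and -0.0333.

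Ligands of the BMP, GDF and activin branches had 12 of 23 genes above 0, a median of 0.02 and 0 calls, with 2 higher and 1 lower at an unadjusted p under 0.05. Bmp10, an atrial ligand of ALK1, had the widest difference in the whole pathway, and most of it came from 1 array: it lay at 5.71 and 10.83 in Akita replicates 1 and 3, against 4.63, 4.64 and 5.18 in WT. The log2 difference was 3.45 (SE 1.23, limma adjusted p = 0.302). It was 6.01 without Akita replicate 1 (adjusted p = 0.0011, with the remaining Akita array assumed to vary like the WT arrays) and 0.89 without Akita replicate 3. The atrial markers Sln (6.71 and 10.85 in Akita replicates 1 and 3, against 7.74 to 8.13 in WT) and Myl7 (6.55 and 10.36, against 7.83 to 8.10) were also highest in Akita replicate 3, and their part in the Bmp10 value was not tested. Gdf11, a circulating ligand that signals through SMAD2 and SMAD3, lay at 5.59 and 5.48 in Akita, against 4.89 to 5.39 in WT (0.40, limma adjusted p = 0.335). Gdf10, also called BMP3b, lay at 5.42 and 5.28, against 5.66 to 5.75 in WT (-0.36, limma adjusted p = 0.242), with no overlap.

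Extracellular antagonists had 5 of 11 genes above 0, a median of -0.01 and 0 calls, with 0 higher and 1 lower at an unadjusted p under 0.05. That gene was Chrd, chordin, which binds BMPs, with a log2 difference of -0.33 (limma adjusted p = 0.344). Fstl1, a secreted follistatin-like glycoprotein of cardiac stroma, lay at 7.67 and 8.28 in Akita, against 7.51 to 7.63 in WT (0.39, limma adjusted p = 0.403), and differed by 0.08 without Akita replicate 3. Nbl1, a BMP antagonist of the DAN family, differed by -0.23 (limma adjusted p = 0.486).

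Inside the cell, the 4 SMADs outside the core, which serve or restrain the BMP branch, had a median of -0.24 and 0 calls, with 0 at an unadjusted p under 0.05. Smad1, a BMP-activated SMAD, lay at 6.53 and 6.42 in Akita, against 6.62, 6.67 and 6.83 in WT (log2 difference -0.23, limma adjusted p = 0.445), and its groups did not overlap. The same was true of Smad9, at 4.82 and 5.35, against 5.38 to 5.49 in WT (-0.37, limma adjusted p = 0.392; -0.10 without Akita replicate 1). Smad5 differed by -0.24 (limma adjusted p = 0.541; -0.12 without Akita replicate 1) and the inhibitory Smad6 by 0.14 (limma adjusted p = 0.843), with Smad6 at 5.94 and 6.78 in Akita around 6.01 to 6.33 in WT. Across all 8 SMAD genes measured, 3 of which lay above 0, no gene passed.

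Adaptors, co-repressors, phosphatases and ubiquitin ligases that act on SMADs lay under 0 in 23 of 31 cases, with a median of -0.07 and 0 calls, 0 higher and 2 lower at an unadjusted p under 0.05. Those were Fkbp1a, the FK506-binding protein that holds the type I receptor inactive (log2 difference -0.28, limma adjusted p = 0.360), and Rnf111, the ligase Arkadia, which degrades SMAD7 and the co-repressors (-0.37, limma adjusted p = 0.365). Rnf111 lay at 6.91 and 7.40 in Akita, against 7.49 to 7.57 in WT, and differed by -0.12 without Akita replicate 1. Usp11, a deubiquitinase, differed by -0.40 (limma adjusted p = 0.439) and by -0.05 without Akita replicate 1. The co-repressor genes Ski and Skil differed by 0.01 and -0.19, the receptor ligase gene Smurf2 by -0.04, and Pmepa1, a feedback inhibitor, by -0.17, with limma adjusted p of 0.982, 0.619, 0.920 and 0.599. Without Akita replicate 1, Skil differed by -0.0167 and Pmepa1 by -0.0133.

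Downstream, Ccn2, the connective tissue growth factor induced by TGF-beta, was the gene that rose among 30 TGF-beta-responsive genes. It lay at 8.69 and 8.86 in Akita, against 7.84, 7.85 and 7.70 in WT, with all Akita values above all WT values (log2 difference 0.98, SE 0.12, limma adjusted p = 0.0285). A second, dimmer Ccn2 probe set lay at 5.14 and 5.69 in Akita and at 5.28 to 5.52 in WT, a difference of 0.04, and the mean of both was not called (0.51, adjusted p = 0.204). The call also ended when any single array was left out, with limma adjusted p from 0.0557 to 0.182, while the difference stayed between 0.89 and 1.06. Of the other responsive genes, Postn, periostin of activated fibroblasts, lay at 8.21 and 8.84 in Akita, against 7.93 to 8.04 in WT (0.55, limma adjusted p = 0.285; 0.23 without Akita replicate 3). Col1a1 stood at 8.15 and 8.79 in Akita and at 7.86 to 8.31 in WT (0.32, limma adjusted p = 0.566; 0.00 without Akita replicate 3). Tgfbi, named for its induction by TGF-beta, lay at 7.91 and 8.48 in Akita, on either side of 8.01 to 8.33 in WT (-0.02, limma adjusted p = 0.978). Over the list, 22 of 30 genes lay above 0, as did 43.3% of all genes, with 2 higher and 0 lower at an unadjusted p under 0.05. The median was 0.09, with medians of -0.15 in Akita replicate 1 and 0.27 in Akita replicate 3. Fibroblast markers were also higher in Akita replicate 3 than in replicate 1, as given above. Col1a1 and Col1a2 are in both lists, so these are not separate observations, and the part of fibroblasts was not tested.

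Genes that respond to BMP were evenly divided, 5 of 10 above 0, with a median of 0.02 and 0 calls (0 higher and 2 lower at an unadjusted p under 0.05). Atoh8, a transcription factor induced through ALK1, lay at 6.76 and 6.83 in Akita, against 7.08 to 7.32 in WT (log2 difference -0.39, limma adjusted p = 0.249). Hey2, a ventricular transcriptional repressor, lay at 7.23 and 7.46, against 7.62 to 7.68 in WT (-0.31, limma adjusted p = 0.317), while its relative Hey1 differed by 0.27 (limma adjusted p = 0.376). Id1, the classic BMP target, differed by -0.16 (limma adjusted p = 0.693).

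On the branch that bypasses SMADs, 15 of 18 genes lay under 0, with a median of -0.08 and 0 calls (0 higher and 3 lower at an unadjusted p under 0.05). Map2k3, a kinase that activates p38, lay at 8.58 in both Akita arrays, against 8.92, 8.93 and 8.88 in WT (log2 difference -0.33, SE 0.10, limma adjusted p = 0.253). Mapk8, the stress kinase JNK1, lay at 7.66 and 7.90, against 8.10 to 8.22 in WT (-0.36, limma adjusted p = 0.284). Pard6a, a polarity protein bound by the TGF-beta receptors, differed by -0.44 (limma adjusted p = 0.365). Map3k7, the kinase TAK1 at the head of this branch, differed by -0.07 (limma adjusted p = 0.841).

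**Figure D4:**
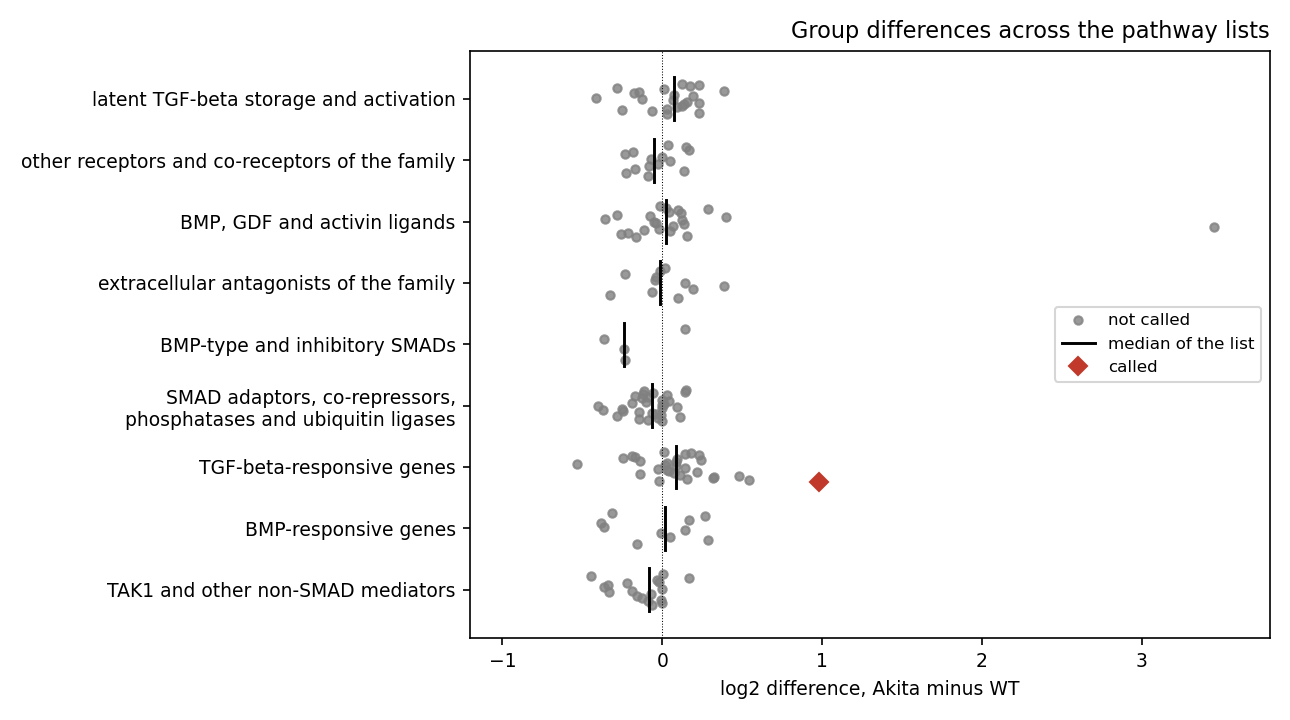
Log2 difference, Akita minus WT (x axis), of the genes tested in the 9 pathway lists; points are genes, black bars list medians, and the red diamond the called gene, Ccn2, at 0.98. The point at 3.45 is Bmp10, which was not called.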

How the data were processed

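Heart RNA of 2 Akita and 3 WT samples was measured on whole-transcript arrays. The authors deposited log2 signals, 1 per probe set and array, made with Affymetrix Expression Console per the submitters' processing notes; neither the program's version nor how probes were summarised is given in the sources used here, and the log2 scale was read from the values (1.27 to 13.66). Normalization between arrays would hide any shift common to most genes, and residual background would shrink differences of dim genes. Of 41345 probe sets, 23521 had exactly 1 symbol, 1814 several and 16010 none in the annotation used. Entrez identifiers matched RefSeq for 23328, and 0 symbols changed. The filter on dim genes stood at the 30th percentile of the mean over the arrays (4.06). Akita minus WT was fitted with lmFit and eBayes from limma 3.58.1 under R 4.3.3, as a two-sided test with 3 residual and 4.38 prior degrees of freedom; tables and figures used Python 3.11.15 with pandas 2.3.3 and matplotlib 3.10.9.

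The fit was tested on simulated data with known changes in 200 of 15528 genes. It recovered 2% of changes of 0.5 log2 units, 81% of those of 1 unit and 100% of those of 2 units. Of its 139 calls, 7 were false. Most changes of 0.5 log2 units or less would thus go uncalled at the spread simulated. The simulated arrays varied independently, with the same spread in both groups. In the data the median absolute gap over the 10 genes was 0.33 between the Akita arrays and 0.08 to 0.105 between WT arrays. Over all genes tested it was 0.19 and 0.12 to 0.15. The simulated rates of recovery and of false calls therefore need not hold for these data. The members, gene lists and alternatives were chosen with earlier results of these data known. Named genes were the 10 members, the called genes of each list or otherwise its 3 smallest p, and a set of well-known pathway genes; marker genes and others named without a p were chosen after their values were seen. Several list genes were not analysed here. The labels name no batch. The number of arrays limits the precision. Alternatives were other filters on dim genes, averaging a gene's probe sets, a repeated quantile normalization, 2 centrings, a trended robust prior, array weights, an unmoderated model and each array left out.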

Additional observations from a re-analysis of the deposited data

How the results depend on the processing

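Of the 10 genes, 0 were called under each of the 14 alternatives, with the smallest adjusted p between 0.141 (without Akita replicate 3) and 0.599 (without WT replicate 4). No paired analysis was possible because the groups share only 1 replicate number. Centring the arrays on the median of all probe sets moved all differences by -0.085 and centring on the median of the genes tested, chosen after seeing the data, by 0.09 (log2). The first turned Tgfb3 (-0.0783), Tgfbr1 (-0.0817), Tgfbr2 (-0.035), Tgfbr3 (-0.0717), Smad2 (-0.0117), Smad7 (-0.055) and Ski (-0.0717). The second turned Tgfb2 (0.0742), Tgfbi (0.0758), Eng (0.0075), Smurf2 (0.0558) and Map3k7 (0.0275). Quantile normalization again turned Tgfb2 (0.004), Tgfbi (0.0613), Smurf2 (0.026) and Map3k7 (0.012), and array weights turned Tgfb3 (-0.0037) and Ski (-0.0199). With each array left out in turn, the difference ran from -0.38 to 0.34 for Tgfb2, from -0.27 to 0.29 for Tgfb3, from -0.0267 to 0.0333 for Tgfbr1, from -0.07 to 0.17 for Tgfbr2, from -0.04 to 0.045 for Tgfbr3, from -0.0567 to 0.20 for Smad2 and from -0.21 to 0.27 for Smad7. It ran from -0.51 to -0.11 for Tgfb1, from -0.48 to -0.06 for Smad3 and from -0.44 to -0.20 for Smad4. Among the other genes that turned it ran from -0.30 to 0.27 for Tgfbi, from -0.55 to 0.80 for Thbs1, from -0.39 to 0.21 for Eng, from -0.28 to 0.56 for Smad6, from -0.14 to 0.16 for Ski, from -0.105 to 0.005 for Smurf2, from -0.32 to 0.0067 for Id1 and from -0.15 to 0.0133 for Map3k7. Calls among the pathway genes numbered 1, Ccn2, and 0 with the mean of all probe sets or the unmoderated model, and 0 to 1 with an array left out, the 1 being Bmp10 without Akita replicate 1, where the lone Akita array is assumed to vary like the others. Each of the 10 genes has 1 probe set, so using other probe sets could give no value for them. Over all genes the 51 calls (33 higher and 18 lower) became 86 without a filter on dim genes, 32 with quantile normalization again, 84 (41 higher, 43 lower) with the first centring, 30 (25 higher, 5 lower) with the second, 197 (60 higher and 137 lower) with a trended robust prior, 28 with array weights, 0 with the unmoderated model, 9 to 44 with an array left out, and 342 when calls needed a fold of 1.5 and p under 0.05 with no adjustment. The cause of these shifts was not tested.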

Other observations

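Among the 158 pathway genes tested outside the 10, 31 (19.6%) lay under every WT array in Akita replicate 1 and above every WT array in Akita replicate 3, where 7.19% of all genes did, and 5 (3.16%) did the reverse, where 3.79% of all genes did. These genes were singled out after their values were seen. The widest gap was in Comp, a cartilage and tendon matrix protein, at 4.91 and 6.87 in Akita replicates 1 and 3, against 5.56 to 5.90 in WT. Lrrc32, which tethers latent TGF-beta to the cell surface, lay at 6.38 and 7.48 in Akita, against 6.70 to 6.99 in WT. Cnn1, a smooth muscle protein, lay at 5.54 and 6.61 in Akita, against 5.79 to 5.96 in WT. Fn1, fibronectin, lay at 8.27 and 9.15, against 8.51 to 8.58 in WT. Klf10, an early TGF-beta-induced factor, lay at 6.65 and 7.50, against 6.74 to 6.89 in WT. In each of these genes the 2 Akita arrays lay on opposite sides of the WT arrays.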
